A study of Mus musculus with 16 samples.

Results

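The genes described here are ligands, an antagonist and receptors of the interleukin-1 (IL-1) family, together with 3 other cytokines counted among the secreted factors of senescent cells. They are the 10 genes *Il1a*, *Il1b*, *Il1rn*, *Il18*, *Il33*, *Il1r1*, *Il1rap*, *Il6*, *Lif* and *Csf1*, chosen by symbol and found by gene identifier among the 20622 genes of the total RNA tables. Ribosome-protected fragments (RPFs, the mRNA stretches shielded by ribosomes from RNase I) and total cytoplasmic RNA were sequenced from KMNTC and KM4A2cr cells, with 4 replicates of each cell line and 16 libraries in all. Both lines descend from KM cells, which were grown from the lung tumours of 1 male mouse carrying *Rosa26* LSL-MYC/LSL-MYC among its alleles, which adenoviral Cre under a surfactant protein C promoter had switched on in the lung. KM4A2cr cells received Cas9 by lentivirus with a guide that cuts in the coding part of *Eif4a2*, the gene of the RNA helicase eIF4A2, and are a pool of 4 clones without detectable eIF4A2 protein by the study's account. KMNTC cells received a non-targeting guide, both lines had been selected with puromycin, and neither was treated before harvest of near-confluent plates. Every library thus comes from cultured cells of 1 tumour-bearing mouse, and the replicates are separate cultures harvested on different days. The question asked of these genes is how the loss of eIF4A2, which the study places in the control of oncogene-induced senescence, goes with their mRNA and ribosome occupancy.

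Senescent cells secrete cytokines, growth factors and proteases, a set called the senescence-associated secretory phenotype (SASP). IL-1α, the product of *Il1a*, is often placed at the head of this programme, since it can stay bound to the cell that makes it and act through the IL-1 receptor to switch on NF-kB and, with it, genes such as *Il6*. IL-1α and IL-1β share 1 receptor, formed by IL1R1 and its accessory chain IL1RAP, and the antagonist encoded by *Il1rn* occupies that receptor without signalling. IL-33 and IL-18 use related receptors, while LIF signals through the gp130 chain that IL-6 also uses and CSF1 acts on macrophages through its own receptor kinase.

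Depth lay between 4512403 and 9621848 counts per RPF library and between 5350920 and 9312624 per total RNA library. RPF values are counts over the coding sequence of 1 transcript per gene and total RNA values are expected counts summed over isoforms, both given here as CPM, counts relative to a library size scaled by TMM within each kind of library. Genes were tested by edgeR with cell line and replicate as terms, and a gene is said to rise or fall where its Benjamini-Hochberg adjusted p over all tested genes was under 0.1. The targeted gene, *Eif4a2*, was at 97.7, 122.1, 99.9 and 388.8 CPM in the RPFs of KMNTC replicates 1 to 4 and at 51.0, 88.4, 74.8 and 345.7 CPM in those of KM4A2cr. Its RPFs were lower in KM4A2cr in 4 of 4 replicate pairs, with a log2 fold change of -0.49 ± 0.15 (SE) and an adjusted p of 0.0941, while its total RNA differed by -0.18 ± 0.13 with an adjusted p of 0.504. A guide of this kind edits the coding sequence, so mRNA and footprints can persist without full-length protein.

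The cells carried an epithelial RNA profile, with 12 of 12 epithelial markers above 1 TPM, a unit corrected for transcript length and library size, and their sum between 5429 and 8042 TPM across the 8 total RNA libraries. Of the 12 alveolar type II cell markers, 8 stayed under 1 TPM in every library, and *Sftpc* and *Sftpb*, the surfactant proteins that define that cell type, were at 0 in all of them. The sum of that list, carried by *Lpcat1*, *Abca3* and *Etv5*, was 127.6 to 158.0 TPM in KMNTC and 88.3 to 222.0 TPM in KM4A2cr. Macrophage markers stayed under 1 TPM for 13 of 17 genes, with *Adgre1*, *Lyz2*, *C1qa* and *C1qb* at 0 in every library, and the sum of the list, carried by *Cd68*, *Cd14* and *Mrc1*, was 73.3 to 239.5 TPM in KMNTC and 88.0 to 170.1 TPM in KM4A2cr. Fibroblast markers stayed under 1 TPM for 9 of 12 genes and summed to at most 5.93 TPM, and endothelial markers stayed under 1 TPM for 6 of 8. *Epcam* and *Cdh1*, 2 epithelial markers, rose in RPFs with log2 fold changes of 0.51 and 0.44, and *Abca3*, a lipid transporter on the alveolar list, rose in RPFs and total RNA with 0.54 and 0.62. *Etv5* and *Lpcat1* of the alveolar list did not pass, at -0.42 and 0.15 in RPFs and -0.33 and 0.22 in total RNA. The part of these marker genes in any cytokine result was not tested.

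All 10 genes have promoters in the RefSeq table used here, 14 windows in all, each running from 250 bases before to 50 bases after a transcription start site in mouse build GRCm38.p6. The windows of *Il1a* and *Lif*, the 2 genes whose RNA changed, are shown beside those of *Il1b* and *Il6*, whose RNA was at or near 0. Letters in capitals mark matches on either strand to an AP-1 motif (TGANTCA), a C/EBP motif (TTNNGNAA), the 10-letter NF-kB consensus or a TATA motif (TATAAA).
Il1a, chr2:129309923-129310222, minus strand: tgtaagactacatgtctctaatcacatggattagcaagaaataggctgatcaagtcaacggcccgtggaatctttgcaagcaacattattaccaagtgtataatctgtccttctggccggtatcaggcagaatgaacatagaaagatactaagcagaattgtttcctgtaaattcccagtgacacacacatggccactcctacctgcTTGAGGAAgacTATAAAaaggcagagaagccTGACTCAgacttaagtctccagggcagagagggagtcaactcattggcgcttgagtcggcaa
Il1b, chr2:129371090-129371389, minus strand: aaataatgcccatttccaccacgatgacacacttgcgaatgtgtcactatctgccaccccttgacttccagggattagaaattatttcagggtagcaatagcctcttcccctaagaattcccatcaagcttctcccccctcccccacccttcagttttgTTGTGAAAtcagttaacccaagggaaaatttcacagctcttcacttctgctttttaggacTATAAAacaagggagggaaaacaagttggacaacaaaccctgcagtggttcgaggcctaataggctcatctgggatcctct
Lif, chr11:4257318-4257617, plus strand: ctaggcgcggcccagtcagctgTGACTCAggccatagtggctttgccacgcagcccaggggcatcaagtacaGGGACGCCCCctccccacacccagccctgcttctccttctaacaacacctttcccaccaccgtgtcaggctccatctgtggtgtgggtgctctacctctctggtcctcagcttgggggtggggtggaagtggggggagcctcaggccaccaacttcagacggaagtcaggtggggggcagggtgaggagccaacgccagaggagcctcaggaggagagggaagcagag
Il6, chr5:30012864-30013163, plus strand: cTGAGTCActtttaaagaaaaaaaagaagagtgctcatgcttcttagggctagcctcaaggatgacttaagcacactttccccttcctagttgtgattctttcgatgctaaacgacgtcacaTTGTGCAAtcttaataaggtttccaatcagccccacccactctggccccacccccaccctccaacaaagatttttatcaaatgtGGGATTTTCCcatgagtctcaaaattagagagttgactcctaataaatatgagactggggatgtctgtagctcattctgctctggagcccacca
The *Il1a* window held 1 AP-1 match, whose first base lies 12 bases before the start site, 1 C/EBP match and 1 TATA match. The *Il1b* window held a TATA match and a C/EBP match but neither of the others. The *Lif* window held 1 AP-1 and 1 NF-kB match, and the *Il6* window held 1 AP-1, 1 NF-kB and 1 C/EBP match. Among the 32851 promoter windows of the table, 7.81% held the AP-1 motif, 8.46% the NF-kB consensus, 40.7% the C/EBP motif and 13.6% the TATA motif. The motifs can overlap each other, and a match says only that these letters stand in the window.

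Per transcript length, *Il1a* and *Lif* were the most abundant of the 10 mRNAs and *Il1b* and *Il6* the least. In KMNTC the mean TPM ran from *Il1a* at 84.2 ± 24.6 (SD, n = 4) through *Lif* at 67.8 ± 24.2, *Il1r1* at 18.4 ± 8.74, *Csf1* at 10.5 ± 1.82, *Il1rap* at 7.72 ± 1.79, *Il1rn* at 6.04 ± 1.91 and *Il33* at 3.91 ± 2.69 to *Il18* at 0.235 ± 0.317. The level of *Il1a* was above that of 83.8% of tested genes in KMNTC and above that of 69.4% in KM4A2cr. Neighbours in this order overlapped between libraries, except that *Lif* stood clear of *Il1r1* and *Il33* clear of *Il18*. An exact 2-sided permutation test gave 0.0286 for each, the smallest that 4 against 4 values allow. That test takes the values as unpaired, although both genes of a comparison were read from the same 4 libraries. A sign-flip test over 4 pairs cannot go below 0.125.

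In KM4A2cr *Lif* came first at 88.9 ± 26.6 TPM and *Il1a* second at 36.8 ± 17.0 TPM, and the others kept the order they had in KMNTC. There, too, most neighbours overlapped, and only *Il33* and *Il18* did not. *Lif* and *Il1a* overlapped, and the same unpaired permutation test gave 0.0571 for them. RPF counts were not compared between genes, since coding lengths were not used here.

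**Figure D1:**
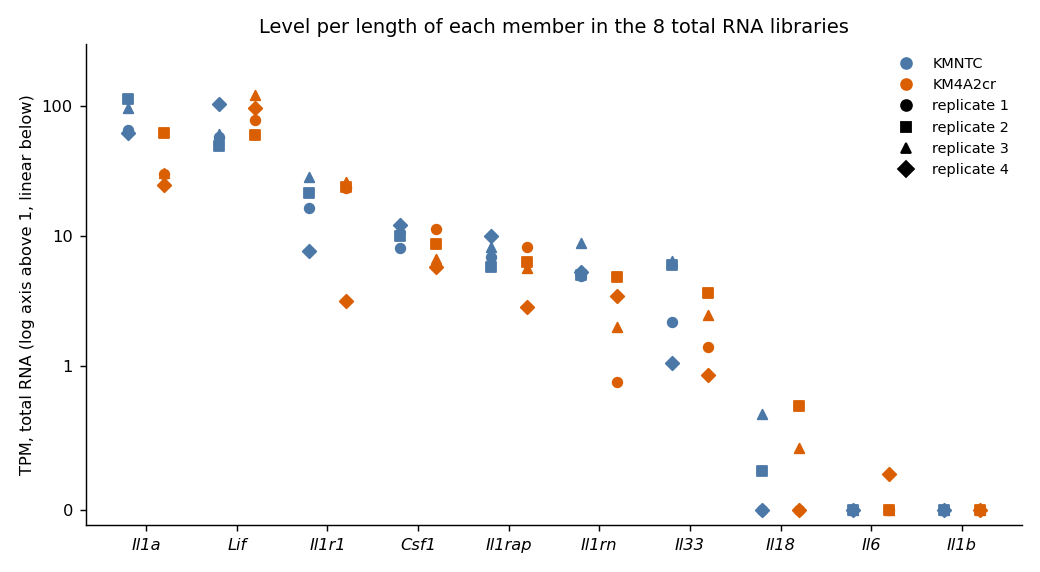
TPM (log axis above 1, linear below) of the 10 genes in the 8 total RNA libraries, ordered by their mean in KMNTC, with 1 point per library. *Il1a* and *Lif* lie highest, with *Il1a* at 62.1 to 112.5 TPM in KMNTC and 24.6 to 62.1 TPM in KM4A2cr, and *Il1b* is at 0 throughout.

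*Il1a* fell in KM4A2cr, in RPFs and in total RNA, and was the 1 gene of the 10 to pass in both. *Il1a* was chosen with earlier results of these same data known, its fall among them, so its tests here are no independent support. Its RPFs were at 26.1, 46.4, 40.0 and 36.9 CPM in KMNTC replicates 1 to 4 and at 11.4, 23.9, 13.5 and 15.4 CPM in the matching KM4A2cr libraries. Every KM4A2cr library lay under every KMNTC library, and the fall was seen in 4 of 4 pairs, with log2 differences of -1.18, -0.95, -1.55 and -1.25. The fitted log2 fold change was -1.24 ± 0.15 (SE, n = 4) with an adjusted p of 0.00453, which leaves 0.424 of the KMNTC level, and 39 of the 10291 tested genes had a lower fold change.

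Total RNA of *Il1a* was at 66.6, 97.1, 100.3 and 77.8 CPM in KMNTC and at 32.1, 57.5, 34.3 and 41.5 CPM in KM4A2cr. Again the groups did not overlap and 4 of 4 pairs were lower, and the log2 fold change was -1.06 ± 0.15 with an adjusted p of 0.00605, or 0.479 of the KMNTC level. An exact 2-sided permutation test of the log2 CPM values gave 0.0286 for each kind of library, the smallest p that 4 against 4 can give, and a sign-flip test over 4 pairs cannot go below 0.125. Groups without overlap occurred for 2.13% of tested genes in RPFs and 1.97% in total RNA.

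The difference of *Il1a* in footprints per mRNA did not pass the test. The log2 ratio of RPF to total RNA CPM was -1.35, -1.07, -1.33 and -1.08 in KMNTC and -1.50, -1.27, -1.35 and -1.43 in KM4A2cr, lower in KM4A2cr in each lysate but with overlapping groups. Translational efficiency, tested in 1 edgeR model of RPFs and total RNA as the extra change of RPFs, differed by -0.17 ± 0.12 with an adjusted p of 0.564. The *Il1a* counts rest on 1 annotated isoform, ENSMUST00000028882.2, in both kinds of library. Without the replicate term neither change passed, at edgeR adjusted p of 0.780 in RPFs and 0.500 in total RNA, and without replicate 3 the adjusted p rose to 0.0985 in RPFs.

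**Figure D2:**
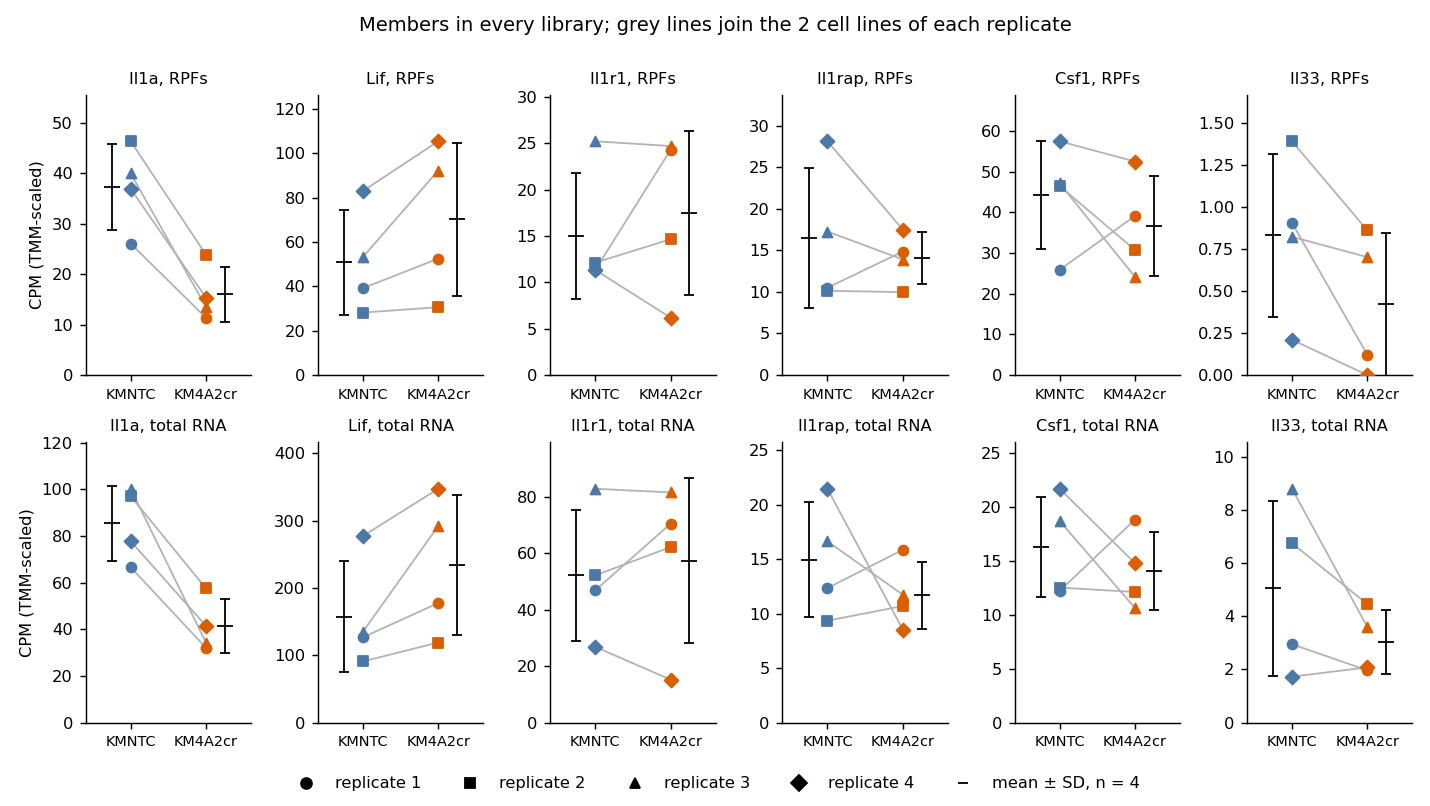
CPM of 6 genes in each library, RPFs above and total RNA below, with the replicate shown by the marker and grey lines joining KMNTC and KM4A2cr of each replicate. The black bars give the mean ± SD of 4 libraries. All 4 lines of *Il1a* slope down and all 4 lines of *Lif* slope up, while those of *Il1r1*, *Il1rap* and *Csf1* run in both directions.

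Of the 10 genes, 5 had enough counts to be tested in RPFs and 1 fell, *Il1a*, while none rose. Over all genes tested in RPFs, 10.3% changed, 6.60% upward and 3.72% downward. In total RNA 7 of the 10 were tested, of which *Il1a* fell and *Lif* rose, against a background of 6.13% changed, 4.35% upward and 1.78% downward. None of the 5 genes tested for translational efficiency changed, where 2.91% of all genes did. None of these 5 had an unadjusted p under 0.05 there either, the smallest being 0.136 for *Lif*, and DESeq2 called none of them. The median log2 fold change of the tested members was -0.12 in RPFs and -0.28 in total RNA, beside -0.009 and 0.01 over all tested genes.

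**Figure D3:**
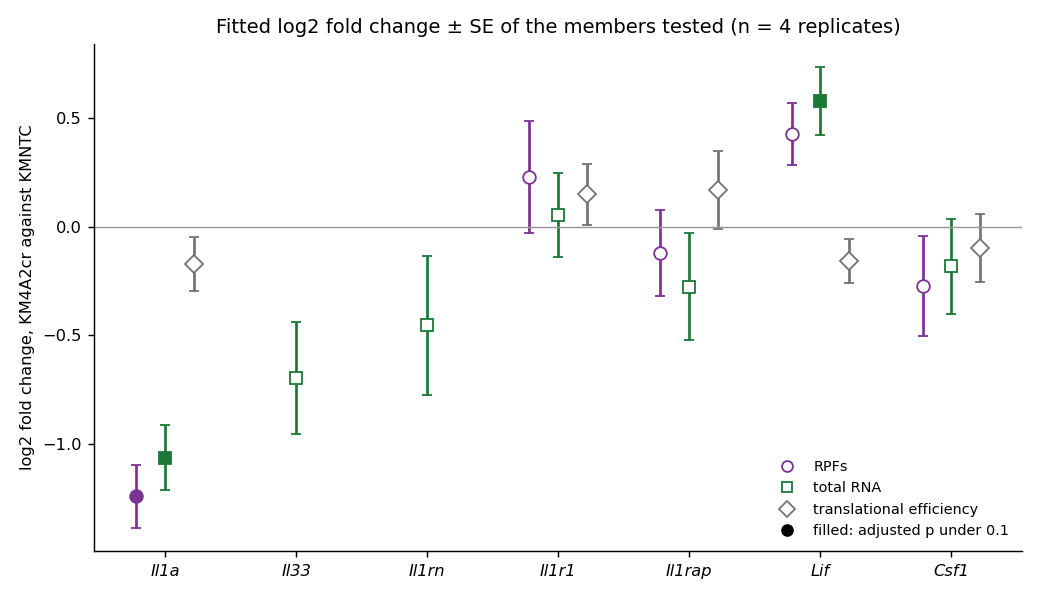
Fitted log2 fold change of KM4A2cr against KMNTC ± SE for the 7 genes tested in at least 1 comparison, in RPFs (circles), total RNA (squares) and translational efficiency (diamonds), with filled symbols for an adjusted p under 0.1. *Il1a* at -1.24 and -1.06 and *Lif* at 0.58 in total RNA are the filled symbols.

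The other ligands of the family were scarce. *Il1b*, the inflammasome-dependent cytokine whose gene lies beside *Il1a*, had 0 counts in all 8 total RNA libraries and no transcript in the RPF tables, and 3 counts, the limit that a count of 0 allows, would be 0.322 to 0.561 CPM at these depths. *Il18* had 3 total RNA counts in KMNTC and 3 in KM4A2cr over 4 libraries each, and its only RPFs were 3 counts in KM4A2cr replicate 3. Neither gene supports a comparison of the lines at this depth. Limits and counting intervals given here cover counting error only.

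*Il33*, an alarmin held in the nucleus, was measurable in total RNA. It stood at 2.95, 6.75, 8.79 and 1.72 CPM in KMNTC and 1.96, 4.45, 3.60 and 2.07 CPM in KM4A2cr. The groups overlapped, 3 of 4 pairs were lower in KM4A2cr, and the log2 fold change of -0.70 ± 0.26 had an adjusted p of 0.186. It did pass without replicate 4, at an adjusted p of 0.0122, the pair in which *Il33* had 9 counts in each line. The RPF counts, 31 over the 4 KMNTC libraries and 13 over the 4 KM4A2cr libraries, were too few for the fit. Their ratio relative to the TMM-scaled library sizes was 0.511, with a 95% counting interval of 0.245 to 1.01.

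The antagonist *Il1rn* was low as well. Its total RNA was at 2.10, 2.43, 4.19 and 2.11 CPM in KMNTC and at 0.654, 2.80, 2.46 and 1.84 CPM in KM4A2cr, with overlapping groups and a log2 fold change of -0.45 ± 0.32 at an adjusted p of 0.502. Its RPFs numbered 3, 5, 4 and 1 counts in KMNTC and 1, 1, 0 and 0 in KM4A2cr, too few for the fit. Those CPM values did not overlap and gave the smallest exact permutation p of 0.0286, but on 13 against 2 counts. Their ratio relative to the TMM-scaled library sizes was 0.187, with a 95% counting interval from 0.0205 to 0.828. The transcript used for its RPFs, ENSMUST00000142093.7, is 321 nucleotides long and held 9 of the 84 total RNA counts of *Il1rn* in KMNTC. Footprints on coding sequence absent from that transcript are outside these RPF counts, while those on sequence it shares with longer isoforms can be counted. In total RNA the TPM of *Il1a* was above that of *Il1rn* in every library, the lowest being 24.6 TPM against a highest of 8.88 TPM.

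Neither receptor chain changed. *Il1r1*, the signalling receptor of IL-1, had RPFs at 11.3, 12.1, 25.2 and 11.3 CPM in KMNTC and at 24.3, 14.6, 24.7 and 6.19 CPM in KM4A2cr. The pairs disagreed, since pair 1 was higher in KM4A2cr by 1.08 on the log2 scale and pair 4 was lower, at -0.84, and total RNA followed them at 0.59 and -0.81. The log2 fold changes were 0.23 ± 0.26 in RPFs and 0.06 ± 0.19 in total RNA, with adjusted p of 0.632 and 0.922, and both turned below 0 without replicate 1, at -0.11 and -0.14. Replicate 4 held the lowest *Il1r1* total RNA of both lines, at 26.8 CPM in KMNTC and 15.2 CPM in KM4A2cr against 46.8 to 82.9 CPM in the other libraries.

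*Il1rap*, the accessory chain, was at 10.5, 10.1, 17.3 and 28.1 CPM in the RPFs of KMNTC and at 14.9, 9.96, 13.9 and 17.5 CPM in those of KM4A2cr. Its pairs also ran both ways, with log2 fold changes of -0.12 ± 0.20 in RPFs and -0.28 ± 0.24 in total RNA and adjusted p of 0.751 and 0.602. Without replicate 4 these values were 0.06 and 0.02, so the sign of both rested on that pair. In total RNA that pair went from 21.5 to 8.53 CPM, the widest gap of the 4.

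*Lif*, a gp130 cytokine, moved opposite to *Il1a*. Its total RNA was at 126.5, 90.7, 134.9 and 276.9 CPM in KMNTC and at 177.4, 118.8, 291.8 and 347.1 CPM in KM4A2cr, higher in 4 of 4 pairs by log2 differences of 0.49, 0.39, 1.11 and 0.33. In CPM the lines overlapped, replicate 4 being the highest library of each and replicate 2 the lowest. In TPM *Lif* was at 57.94, 49.05, 60.92 and 103.23 in KMNTC and at 77.59, 59.93, 122.02 and 96.22 in KM4A2cr, so pair 4 was lower. The fitted log2 fold change of the total RNA counts was 0.58 ± 0.16 with an adjusted p of 0.0770, or 1.49 times the KMNTC level. This call ended when replicate 1, 2 or 3 was left out, at adjusted p of 0.210, 0.273 and 0.499, and under upper-quartile scaling or scaling by library size alone, at 0.120 and 0.140.

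RPFs of *Lif* were at 39.2, 28.2, 53.3 and 83.1 CPM in KMNTC and at 52.5, 30.6, 92.3 and 105.5 CPM in KM4A2cr, higher in the same 4 pairs. The log2 fold change of 0.43 ± 0.14 had an adjusted p of 0.119 and passed only without replicate 4, at 0.0251. Translational efficiency differed by -0.16 ± 0.10 with an adjusted p of 0.519. *Lif* has 1 isoform in the tables, ENSMUST00000066283.12. Beside *Il1a* and *Lif*, the translational efficiency of *Il1r1* differed by 0.15 ± 0.14, that of *Il1rap* by 0.17 ± 0.18 and that of *Csf1* by -0.10 ± 0.16, with adjusted p of 0.684, 0.726 and 0.831.

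*Il6*, the cytokine most often measured as a SASP product, was not expressed at a measurable level. It had 0 counts in 7 of 8 total RNA libraries and 1 count in KM4A2cr replicate 4, and the RPF tables listed no transcript of it. *Csf1*, the macrophage growth factor, was at 25.9, 46.5, 47.1 and 57.5 CPM in the RPFs of KMNTC and at 39.1, 30.8, 24.1 and 52.5 CPM in those of KM4A2cr. Pair 1 was higher in KM4A2cr and the other 3 were lower, and the log2 fold changes of -0.27 ± 0.23 in RPFs and -0.18 ± 0.22 in total RNA had adjusted p of 0.513 and 0.712. Total RNA of *Csf1* spread over 4 isoforms, of which the 1 in the RPF table held 115 of 477 counts in KMNTC.

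The 5 genes whose RPF pattern over the 8 libraries was most like that of *Il1a*, by Pearson correlation of log2 CPM, were *Sec16a* at 0.974, *Plcl2* at 0.967, *Acap1* at 0.952, *Nol4l* at 0.952 and *Amotl2* at 0.948. These are descriptions over libraries that share replicate and cell line. The 5 genes fell in RPFs, with log2 fold changes from -1.33 to -0.69. They were chosen for following *Il1a* over the same libraries, so this fall is no separate result. *Sec16a* and *Nol4l* lie on chromosome 2, as does *Il1a*, and *Plcl2*, *Acap1* and *Amotl2* lie on chromosomes 17, 11 and 9.

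Other members of the family were read from a list of 18 symbols, of which 14 were in the files and 3 were tested. *Il18r1*, the ligand-binding chain of the IL-18 receptor, fell in both kinds of library. It was 1 of 3 tested, or 33.3% in each, beside 10.3% and 6.13% of all genes changed. Its RPFs were at 38.0, 44.5, 72.2 and 71.1 CPM in KMNTC and 34.2, 30.01, 37.7 and 21.3 CPM in KM4A2cr, and its total RNA at 35.8, 57.5, 73.8 and 70.9 CPM against 27.0, 28.3, 36.2 and 22.1 CPM. All 4 pairs were lower in each, with log2 fold changes of -0.82 ± 0.23 (adjusted p = 0.0770) in RPFs and -1.03 ± 0.18 (adjusted p = 0.0155) in total RNA. Without replicate 3 no gene of this list passed in either kind of library, nor in RPFs without replicate 2. *Il18rap*, the accessory chain of that receptor, and *Sigirr*, a decoy-like receptor of the family, were tested and did not pass in either, with log2 fold changes of -0.005 and 0.11 in RPFs and -0.31 and 0.35 in total RNA. *Il1r2*, the decoy receptor of IL-1, had 2 total RNA counts in KMNTC and 3 in KM4A2cr, so its comparison was not possible at this depth.

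Adaptors and kinases between the IL-1 receptor and NF-kB, such as *Myd88* and the IRAK and TRAF genes, gave 1 call of 20 tested in RPFs, or 5% beside 10.3% of all genes. That gene was *Map3k3*, which rose by 0.86 on the log2 scale. They gave 0 of 21 by edgeR in total RNA, where 2 had an unadjusted p under 0.05 and DESeq2 called 0. Their median log2 fold change was 0.11 in RPFs and -0.11 in total RNA, and 17 of 20 had a translational efficiency difference above 0, where 47.1% of all genes did, with a median of 0.15 beside -0.017. No test of the list as a whole was made. *Traf6*, the ubiquitin ligase downstream of the IRAK kinases, and *Map3k7*, which encodes TAK1, were the 2 of 20 called there, or 10% beside 2.91% of all genes, at 0.61 and 0.48, and were named after their values were seen. Total RNA of *Traf6* was at 105.0, 115.2, 127.1 and 104.6 CPM in KMNTC and 68.7, 115.5, 96.0 and 51.9 CPM in KM4A2cr, while its RPFs were at 11.8 to 15.9 CPM and 11.6 to 16.7 CPM.

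Genes of IL-1 and IL-18 processing and release gave 2 calls of 12 tested in RPFs and 2 of 12 in total RNA, or 16.7% in each, beside 10.3% and 6.13% of all genes. *Aim2*, a DNA sensor of inflammasomes, fell in both, with log2 fold changes of -0.54 and -0.78, and was lower in 4 of 4 pairs each time. *Gsdmd*, the pore-forming gasdermin D, fell in RPFs with -0.56, and *Ninj1*, needed for rupture of the plasma membrane, rose in total RNA by 0.77. Total RNA of *Ninj1* was at 20.9 to 25.0 CPM in KMNTC and 34.5 to 45.3 CPM in KM4A2cr, without overlap. *Casp1*, *Nlrp3* and *Pycard*, which form the classical inflammasome, did not reach the filter. No RPF call of this list held when replicate 2 or 3 was left out, although 2 genes kept an unadjusted p under 0.05 each time.

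The IL-6 family list holds the receptors and the JAK-STAT pathway that LIF acts through. In RPFs 4 of 19 tested genes rose and none fell, where 6.60% of all genes rose, and 15 of 19 lay above 0, where 48.9% of all genes did. In total RNA 3 of 18 rose and none fell, where 4.35% of all genes rose, and 14 of 18 lay above 0, where 51.6% did. The median log2 fold change was 0.48 in RPFs and 0.27 in total RNA, beside -0.009 and 0.01 over all genes, and no test of the list as a whole was made. *Clcf1*, a cytokine of the CNTF receptor, had RPFs at 12.2, 15.3, 42.6 and 35.3 CPM in KMNTC and at 23.9, 56.3, 185.6 and 47.7 CPM in KM4A2cr, higher in each pair and most of all in replicate 3. Its log2 fold change was 1.39 in RPFs and 1.38 in total RNA.

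*Lifr*, the LIF receptor, rose in total RNA by 0.93 on the log2 scale, higher in 4 of 4 pairs, but replicate 4 was far above the rest in both lines, at 36.0 CPM in KMNTC and 70.8 CPM in KM4A2cr against 2.84 to 14.6 CPM elsewhere. Its RPFs did not pass, with 0.36 at an adjusted p of 0.471 and 2 of 4 pairs higher, and its translational efficiency differed by -0.59 at an adjusted p of 0.295. *Jak2*, a kinase bound to gp130 receptors, rose in RPFs by 0.57 and in translational efficiency by 0.50, and *Stat5a* rose in RPFs by 0.82 at 1.54 to 3.47 CPM in KMNTC, as did its close paralogue *Stat5b*, named after its value was seen, by 0.94. Reads of the pair can be hard to tell apart. *Socs3*, the feedback inhibitor induced by LIF and IL-6, rose in total RNA by 0.69, in 3 of 4 pairs. *Il6st*, which encodes gp130, did not pass, with 0.38 in RPFs at an adjusted p of 0.173 and 0.27 in total RNA at 0.466.

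In the colony-stimulating factor list 0 of 7 tested genes passed in RPFs by edgeR, beside 10.3% of all genes. There 2 had an unadjusted p under 0.05 and DESeq2 called 0. In total RNA 1 of 6 passed, or 16.7% beside 6.13% of all genes. That gene was *Csf2*, the granulocyte-macrophage factor, with total RNA at 16.6, 37.5, 81.8 and 107.7 CPM in KMNTC and 21.9, 50.4, 124.2 and 206.7 CPM in KM4A2cr. It rose by 0.61 ± 0.14 on the log2 scale with an adjusted p of 0.0410, in 4 of 4 pairs, although the spread between replicates was wider than the difference. Its RPFs differed by 0.39 with an adjusted p of 0.119. In total RNA no gene of this list passed without replicate 2 or without replicate 3. *Csf3* and *Il34* were tested and did not pass, at -0.17 and 0.45 in RPFs.

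Other secreted SASP factors were called in RPFs at a share near that of all genes. There 3 of 34 tested genes rose and 1 fell, or 11.8% called beside 10.3% of all genes. In total RNA none of 35 rose and 3 fell, or 8.57% called beside 6.13% of all genes. Over all genes 4.35% rose and 1.78% fell in total RNA. None of the list was called in total RNA without replicate 2 or without replicate 3, and no test of the list as a whole was made. The growth factors *Tgfb1*, *Areg* and *Vegfa* rose in RPFs, each in 4 of 4 pairs, and the chemokine *Cxcl3* fell with log2 fold changes of -1.25 in RPFs and -1.04 in total RNA. *Cxcl3* total RNA was at 40.1, 20.8, 42.1 and 10.4 CPM in KMNTC and 34.8, 12.3, 11.6 and 2.31 CPM in KM4A2cr. *Fgf7*, a growth factor for epithelial cells, and the chemokine *Ccl20* fell in total RNA with -1.601 and -0.84, *Fgf7* from 1.44 to 4.49 CPM to at most 1.64 CPM.

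Transcription factors and RNA-binding proteins that act on cytokine genes, among them the NF-kB and C/EBP subunits and the *Zfp36* family, gave 1 call of 30 in RPFs and 1 of 30 in total RNA, or 3.33% in each, under the 10.3% and 6.13% of all genes. Both were *Fos*, a subunit of AP-1, which rose by 0.60 in RPFs and 0.73 in total RNA in 4 of 4 pairs. *Junb*, another AP-1 subunit named after its value was seen, fell in translational efficiency, at -0.36. The median log2 fold change of this list was 0.03 in RPFs and -0.11 in total RNA, beside -0.009 and 0.01 over all genes. Summed over the 7 lists, 13 of 125 tested genes passed in RPFs, 11 of 125 in total RNA and 4 of 121 in translational efficiency. These are 10.4%, 8.80% and 3.31%, beside 10.3%, 6.13% and 2.91% of all genes. The counts fell to 0 in RPFs without replicate 2 or without replicate 3 and rose to 48 without replicate 4, when 123, 32 and 3469 of all genes passed. In the RPF fits without replicate 2 and without replicate 3, 20 and 19 list genes had an unadjusted p under 0.05.

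**Figure D4:**
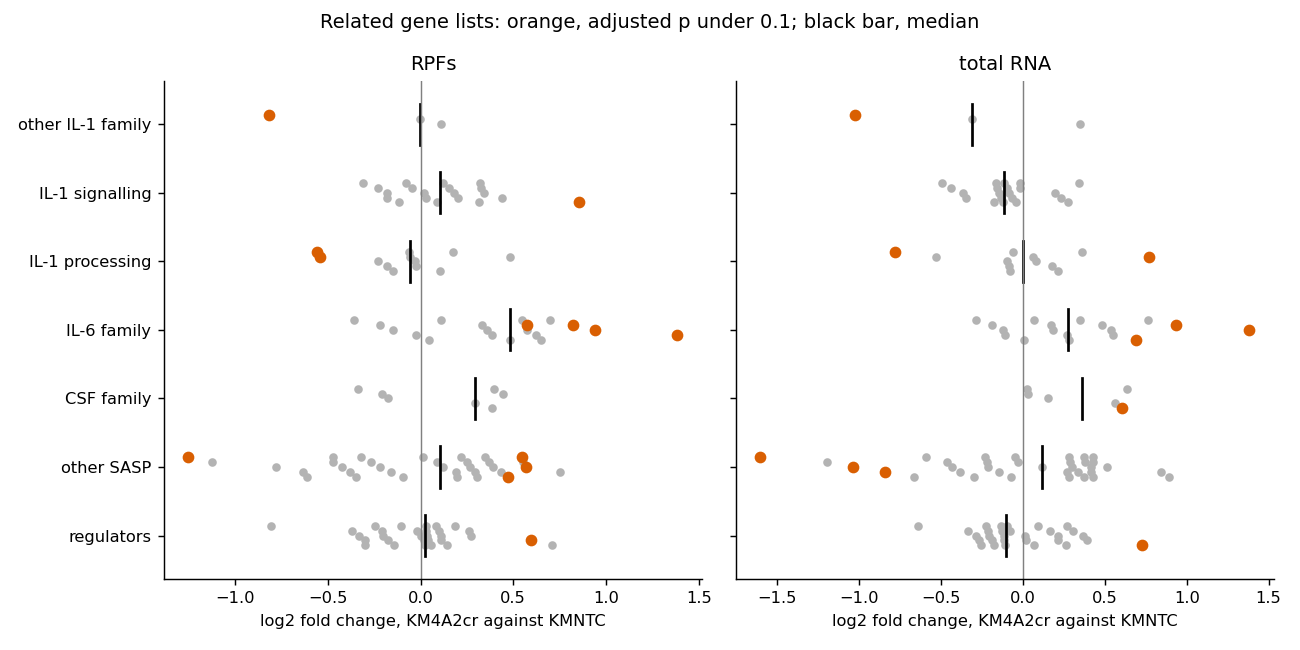
Log2 fold change of KM4A2cr against KMNTC for every tested gene of the 7 related lists, in RPFs (left) and total RNA (right), with genes at an adjusted p under 0.1 in orange and the list median as a black bar. The IL-6 family median lies at 0.48 in RPFs and 0.27 in total RNA, and orange points lie on both sides of 0 for other SASP genes in RPFs and for IL-1 processing in total RNA.

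*Il1a*, *Il1b* and *Il1rn* share chromosome 2, whose genes as a whole were lower in KM4A2cr. The median log2 fold change of its tested genes was -0.21 in RPFs and -0.17 in total RNA, while the other 18 autosomes and the X chromosome lay between -0.12 and 0.09 in RPFs and between -0.12 and 0.13 in total RNA. Cut into 17 successive runs of at most 50 tested genes, the chromosome had a median below 0 in every run in RPFs, from -0.32 to -0.10. Of the 20 tested genes nearest to *Il1a*, 18 lay below 0 in RPFs, 4 fell and none rose, with a median of -0.23, and 14 lay below 0 in total RNA, with a median of -0.14 and 1 that fell. The nearest on each side were *Ckap2l*, at -0.68 ± 0.13 with an adjusted p of 0.0251, and *Stk35*, at -0.23 ± 0.23 with an adjusted p of 0.592. *Il1a* lay 1.01 under the median of its 20 neighbours in RPFs and 0.92 under it in total RNA, and whether the shift of the chromosome has a part in its fall was not tested. The 20 neighbours of *Lif* on chromosome 11 had medians of -0.09 and 0.03, and none of them passed.

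**Figure D5:**
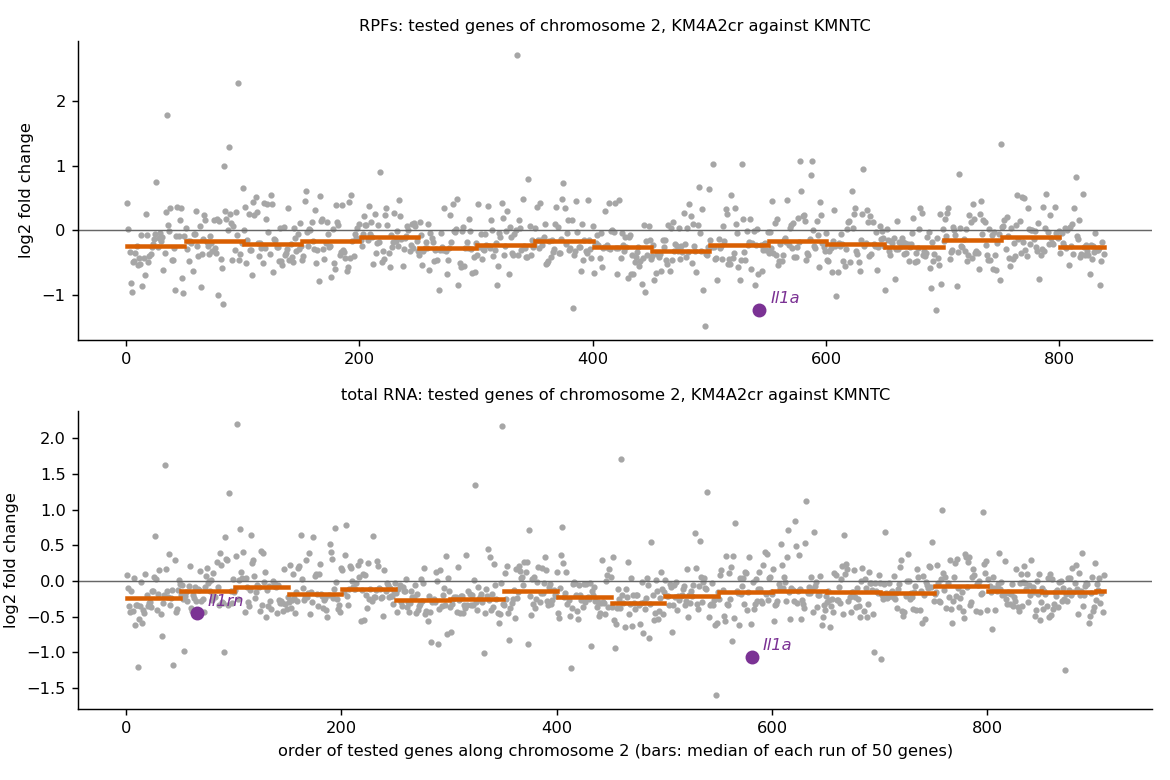
Log2 fold change of KM4A2cr against KMNTC for each tested gene of chromosome 2 in gene order, in RPFs (top) and total RNA (bottom), with orange bars for the median of each run of 50 genes, the last run being shorter, and *Il1a* and, in total RNA, *Il1rn* in purple. Every bar lies below 0, and *Il1a* lies well under its neighbours at -1.24 and -1.06.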

How the data were processed

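RPFs and total cytoplasmic RNA of the same lysates were analysed. For RPFs, the authors deposited counts per transcript, made with Cutadapt 1.18, UMI-tools 1.0.1 and BBmap against 1 transcript per gene of GENCODE vM27, over coding sequences without their end codons. The deposited total RNA tables hold expected counts and TPM per isoform from RSEM 1.3.3 after Bowtie2 2.3.5.1 alignment. Here expected counts were summed per gene and rounded. Transcripts absent from 1 RPF library but present in others counted as 0 there. Depth was 4512403 to 9621848 counts per library, and scarce genes stay imprecise.

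Tests used edgeR 4.0.16 in R 4.3.3 (filterByExpr, TMM, glmQLFit, glmQLFTest) with cell line and replicate as terms, and translational efficiency was an interaction in 1 model over 16 libraries with lysate terms. DESeq2 1.42.0 was an alternative. Log2 CPM used a prior count of 2. Each kind of library was scaled separately, so a change in the total amount of RNA or footprints per cell leaves no trace. The replicate numbers, which the design text ties to separate days, pair the libraries. Deviations of the 2 lines from their means correlated at 0.575 to 0.782 for the 4 numbers in RPFs and at 0.611 to 0.756 in total RNA.

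1 item of the genotype shared by both lines is not reported here. The members and lists were chosen with earlier results of these data known. From each list the genes called in RPFs or total RNA are named, at most 3 by RPF p and 3 by total RNA p. Other list genes, named for their role or for a call in translational efficiency, were chosen after their values were seen. To these were added the nearest tested genes beside *Il1a* and the 5 genes most like it. Chromosomes, gene order and promoters came from RefSeq GRCm38.p6, another build than the files'. Protein sequences and coding lengths were not used here. Alternatives tried were a fit without the replicate block, DESeq2, 3 scalings (RLE, upper-quartile, library size only), 2 filters, a threshold of 0.05, each replicate left out, counts of the RPF isoform only, a prior count of 0.5 and isoform counts in place of TPM.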

Additional observations from a re-analysis of the deposited data

Results flagged for a closer look

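Of 32 groups of 4 libraries, 4 had a library that stood apart from the other 3 by more than Dixon's 95% criterion allows. In 2 of these the other 3 libraries were at 0, so that any count stands apart by construction. For the other 2, chance flags about 1 in 20 groups. *Il1r1* in the RPFs of KMNTC was at 25.2 CPM in replicate 3, on 184 counts, while the other 3 lay between 11.3 and 12.1 CPM. *Il1rn* in the total RNA of KMNTC was at 4.19 CPM in replicate 3, on 31 counts, with the others between 2.10 and 2.43 CPM. *Il18* had 0.421 CPM in the RPFs of KM4A2cr replicate 3, from 3 counts, and *Il6* had 0.231 CPM in the total RNA of KM4A2cr replicate 4, from 1 count, where the other 3 libraries of each group were at 0.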

How the results depend on the processing

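Without the replicate block no gene passed in any of the 3 comparisons, so edgeR called 0 members and 0 list genes, although the *Il1a* log2 fold change was -1.22 in RPFs. Unadjusted p under 0.05 was then left for 365 genes in RPFs, 362 in total RNA and 22 in translational efficiency, against 2411, 1995 and 1410 with the block. *Il1a* passed under every other alternative run in RPFs and in total RNA. The count of members called was 1 to 2 in RPFs and 1 to 3 in total RNA as each replicate was left out, and 1 in total RNA under upper-quartile scaling and at a threshold of 0.05. Scaling by library size alone kept a count of 2 there, since *Lif* was lost and *Il33* passed at 0.0904, and *Il33* also passed with no filter on low counts, at 0.0785.

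List calls ranged from 0 to 48 in RPFs, 0 to 57 in total RNA and 0 to 9 in translational efficiency as each replicate was left out, the highest without replicate 4 each time. At a threshold of 0.05 they were 3 in RPFs and 2 in translational efficiency. With no filter they were 20 in total RNA and 8 in translational efficiency, and with DESeq2 they were 2 in translational efficiency. Of 369 values of named list genes and neighbours under the alternatives, 127 lost their call and 4 changed sign, and the cause was not tested.

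*Il1r1* changed sign without a replicate, ranging from -0.11 to 0.45 in RPFs, -0.14 to 0.26 in total RNA and -0.004 to 0.26 in translational efficiency, and was -0.10 in total RNA when scaled by library size alone. The same ranges for *Il1rap* were -0.339 to 0.062 (RPFs) and -0.505 to 0.017 (total RNA), those for *Csf1* -0.458 to 0.016 (total RNA) and -0.245 to 0.082 (translational efficiency), and those for *Stk35*, beside *Il1a*, -0.446 to 0.015 (RPFs) and -0.113 to 0.055 (total RNA). Total RNA of *Stk35* was at 0.004 without the block and 0.036 for the RPF isoform only. Scaling by library size alone moved the median of all genes to -0.15 in RPFs and -0.15 in total RNA and the share of calls that rose from 63.9% to 29.8% and from 70.9% to 23.2%, and in translational efficiency from 64.3% to 78.8%. Upper-quartile scaling moved these shares to 53.5% and 60.1%. The 4 replicates are cultures of 1 pair of lines, and counts under about 10 per library leave *Il18*, *Il33*, *Il1rn* and *Il6* unresolved in RPFs.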
